A study of Mus musculus with 9 samples.

Results

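The PPAR machinery of the mouse colon was followed across 9 genes, the receptors Ppara, Ppard and Pparg, their partner Rxra, the coactivators Ppargc1a, Ppargc1b, Lpin1 and Med1, and the corepressor Ncor1. They were chosen by gene symbol, each symbol was found once, and they are 9 of the 54146 genes listed. PPARs are nuclear receptors that bind fatty acids and their derivatives and act on DNA as a pair with a retinoid X receptor. In the gut, PPARα is known for fatty acid oxidation and ketogenesis, PPARδ for fatty acid use and for crypt stem and progenitor cells, and PPARγ for the differentiation of colonocytes. Coactivators such as PGC-1α, encoded by Ppargc1a, raise the output of the receptors, and corepressors such as NCoR1 hold unliganded receptors inactive.

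RNA-seq libraries came from 9 C57BL/6J mice aged 15 wk, all heterozygous for the germline Min allele of Apc, which makes the intestine prone to adenomas. A group of 5 mice (2 females and 3 males) was ApcMin/+, and a group of 4 (3 females and 1 male) was ApcMin/+; p16cis/cis, that is, also homozygous for a knock-in of an Alu-related element that brings DNA methylation to the p16 promoter. Both alleles are germline and so are present in every cell type, and each library is 1 mouse. The labels give the tissue as colonic mucosa, and the methods name colonic crypts as the source of the RNA. The comparison asked which genes change when p16 epimutation is added to the Apc mutation. A total of 13523500 to 17885918 reads per mouse were counted on genes, and all 7 epithelial markers passed the filter below. None of the 7 was called by limma or edgeR (3 had an unadjusted p under 0.05) and 3 were by DESeq2. Cdkn2a, the p16 gene, had 0 reads in every library, which allows a share of at most 2.22e-05% (3 reads, counting error only), so these data do not check the p16 allele. Mitochondrial genes took 8.74% to 15.6% of reads in ApcMin/+ mice and 19.3% to 29.8% in ApcMin/+; p16cis/cis mice, with no overlap, so this share and the genotype cannot be told apart.

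Values are normalized counts, that is, gene counts divided by a size factor for each mouse. Differences were tested with limma on log2(normalized count + 1) over the 14410 genes that reached 10 in 4 or more mice. All 9 genes passed this filter, and a call is a Benjamini-Hochberg adjusted p under 0.05 over all genes tested. Of the 9 genes, Ppara and Ppargc1a (2) were called lower in ApcMin/+; p16cis/cis mice, against 8.75% of all genes tested, and Ppard (1) was called higher, against 8.14%. The other 6 were not called. Ppara (1) also passed the 2-fold threshold used in the study, which 1.64% of all genes passed downward and 1.83% upward. The study paired that threshold with DESeq2 and a Bonferroni correction, so these shares are not like for like with its counts. DESeq2 and edgeR, run on the recovered reads, called 3 and 2 of the 9 lower (10.1% and 9.05% of all genes) and 1 each higher (8.9% and 8.08%). The genotypes did not overlap for Ppara, which was lower (8.95% of all genes), and for Ppard, which was higher (7.24%). The median log2 fold change was -0.18 over the 9 genes and -0.0041 over all genes tested.

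**Figure D1:**
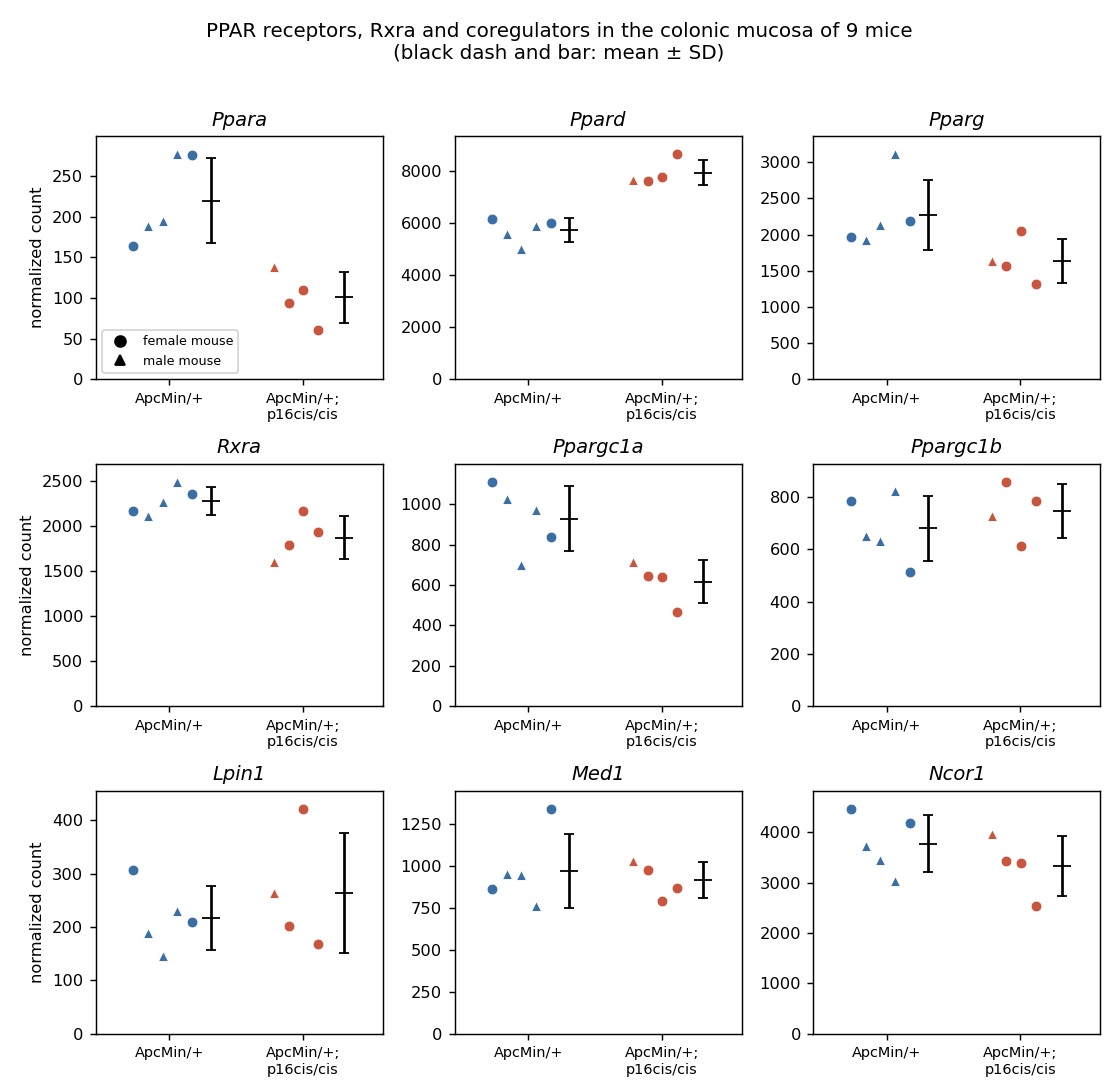
Normalized count (y axis, linear, from 0) of each of the 9 genes in each mouse by genotype, with circles for females, triangles for males and a black dash and bar for the mean ± SD of 5 ApcMin/+ and 4 ApcMin/+; p16cis/cis mice. All 4 Ppara points of ApcMin/+; p16cis/cis mice (61.1 to 138) sit below the lowest ApcMin/+ point (164), and all 4 Ppard points (7634 to 8647) sit above the highest one (6175).

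Among the receptors, Ppara (ENSMUSG00000022383.13), the PPAR best known for inducing fatty acid oxidation, fell. Its normalized count was 164, 188, 195, 277 and 276 in the ApcMin/+ mice and 138, 94.1, 110 and 61.1 in the ApcMin/+; p16cis/cis mice. Every mouse with the p16cis alleles was below every mouse without them, and the single male among the former was the one nearest to the ApcMin/+ range. The means were 220 ± 52.8 (SD, n = 5) and 101 ± 31.9 (SD, n = 4), a 2.19-fold difference. The log2 fold change was -1.15 (SE 0.25, limma adjusted p = 0.0111). These counts rest on 39 to 243 reads per library, the fewest of the 3 receptors. The level in ApcMin/+ males (mean 220.2, n = 3) and females (219.9, n = 2) was nearly the same. Among females alone the log2 fold change was -1.30 (limma adjusted p = 0.0558, 2 against 3 mice), and with the mitochondrial share in the model it was -0.67 (limma adjusted p = 0.861).

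Ppard (ENSMUSG00000002250.15) rose while Ppara fell. It encodes the PPAR that is expressed most widely across tissues. In the ApcMin/+ mice its normalized count was 6175, 5592, 5021, 5907 and 6022. In the ApcMin/+; p16cis/cis mice it was 7679, 7634, 7776 and 8647. The genotypes did not overlap, and replicate 4 stood above the other mice of its group. The means were 5743 ± 457 (SD, n = 5) and 7934 ± 479 (SD, n = 4), a 1.38-fold difference. Every ApcMin/+ male lay below both ApcMin/+ females (means 5507, n = 3, and 6098, n = 2). The log2 fold change was 0.47 (SE 0.10, limma adjusted p = 0.0109). Among females alone it was 0.39 (limma adjusted p = 0.129), and with the mitochondrial share in the model 0.30 (limma adjusted p = 0.857).

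Pparg (ENSMUSG00000000440.12), the receptor of the thiazolidinedione drugs, was not called. The normalized count of Pparg was 1970, 1922, 2139, 3110 and 2192 in ApcMin/+ mice and 1639, 1558, 2047 and 1316 in ApcMin/+; p16cis/cis mice. The genotypes overlapped through 1 mouse with the p16cis alleles, replicate 3 at 2047, while ApcMin/+ replicate 4 stood above all others. The means were 2267 ± 485 (SD, n = 5) and 1640 ± 304 (SD, n = 4), and the log2 fold change was -0.46 (SE 0.16, limma adjusted p = 0.0653). In DESeq2, an alternative, it was -0.46 with an adjusted p of 0.0433. Without ApcMin/+; p16cis/cis replicate 3 it was -0.57 (limma adjusted p = 0.0350).

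The 3 receptors lie on different chromosomes. In GENCODE M21 (GRCm38), Ppara is at chr15:85734983-85802819, Ppard at chr17:28232700-28301474 and Pparg at chr6:115360951-115490399, all on the plus strand. The knock-in lies at the p16 promoter, on none of these chromosomes, and how it relates to these genes was not tested. As a description only, the stretch next to the start site is shown for the receptors that were called. CpG dinucleotides, the sites of DNA methylation, are in capitals in the 2 stretches. Both are from the RefSeq table for GRCm38.p6 and hold bases in no annotated exon, 62 bases for Ppara (chr15:85735714-85735775, plus strand) with 7 CpGs and 196 bases for Ppard (chr17:28232504-28232699, plus strand) with 14.
Ppara: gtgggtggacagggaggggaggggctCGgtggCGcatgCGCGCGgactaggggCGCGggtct
Ppard: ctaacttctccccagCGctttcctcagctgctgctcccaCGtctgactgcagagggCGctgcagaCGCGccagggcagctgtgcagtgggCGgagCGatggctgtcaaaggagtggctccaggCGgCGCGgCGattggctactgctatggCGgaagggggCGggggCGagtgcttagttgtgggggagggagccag
Over the 250 bases before the RefSeq start, Ppara has 27 CpGs, a number that 8.56% of the 32851 promoters in that table reach. Ppard has 22, which 14.8% reach. The 250 bases of Ppara (chr15:85735526-85735775) lie inside the gene as placed above, and those of Ppard (chr17:28232504-28232753) reach into it. The median promoter has 6. The receptors that were called lower and higher are thus both above it, and so are genes that were not called. The starts listed for the latter have 38, 12 and 2 CpGs (Pparg), 40 and 1 (Rxra), 2 and 34 (Ncor1), 18 (Med1) and 1 (Lpin1). Methylation was not analysed here.

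Rxra (ENSMUSG00000015846.14, chr2:27676440-27762957, plus strand) encodes the retinoid X receptor that pairs with each PPAR. Rxra stood at 2167, 2117, 2269, 2494 and 2358 normalized counts in ApcMin/+ mice and 1605, 1788, 2171 and 1933 in ApcMin/+; p16cis/cis mice. Only replicate 3 of the latter reached into the ApcMin/+ range. The means were 2281 ± 151 (SD, n = 5) and 1874 ± 239 (SD, n = 4), and the log2 fold change of -0.29 (SE 0.10) was not called (limma adjusted p = 0.0772). It was called after correction for GC content and length (-0.39, limma adjusted p = 0.0323), which called 5.62% of all genes lower and 6.29% higher, and without that replicate (-0.36, limma adjusted p = 0.0379). Of the other retinoid X receptors, Rxrb had a log2 fold change of 0.24 (limma adjusted p = 0.0921), and Rxrg was listed at 0 in all libraries but 1.

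Ppargc1a (ENSMUSG00000029167.13, chr5:51454250-51567726, minus strand) was the coactivator called lower. PGC-1α is induced by fasting, cold and exercise in other tissues and drives mitochondrial biogenesis and oxidation with PPARs and other factors. Normalized counts of Ppargc1a were 1110, 1025, 699, 969 and 837 in ApcMin/+ mice and 715, 646, 642 and 465 in ApcMin/+; p16cis/cis mice. The ranges overlapped by 1 mouse on each side, ApcMin/+ replicate 3 at 699 and ApcMin/+; p16cis/cis replicate 1 at 715. The means were 928 ± 162 (SD, n = 5) and 617 ± 106 (SD, n = 4). The log2 fold change was -0.59 (SE 0.16, limma adjusted p = 0.0272). The call was lost with sex in the model (-0.57, limma adjusted p = 0.0619), after GC and length correction (-0.34, limma adjusted p = 0.19), among females (-0.74, limma adjusted p = 0.0638), and with the mitochondrial share in the model (-0.65, limma adjusted p = 0.848). It was also lost without ApcMin/+ replicate 1 (-0.52, limma adjusted p = 0.0601) or 2 (-0.55, limma adjusted p = 0.0676) and without ApcMin/+; p16cis/cis replicate 2 (-0.62, limma adjusted p = 0.0586) or 4 (-0.46, limma adjusted p = 0.0835).

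The promoter of Ppargc1a is shown beside those above because it is poor in CpGs. It has 5 over 250 bases, fewer than the median promoter, and 55.6% of promoters have as many or more. The 249 bases next to the start site (GRCm38.p6, chr5:51567727-51567975, minus strand, in no annotated exon) are given with CpGs in capitals.
Ppargc1a: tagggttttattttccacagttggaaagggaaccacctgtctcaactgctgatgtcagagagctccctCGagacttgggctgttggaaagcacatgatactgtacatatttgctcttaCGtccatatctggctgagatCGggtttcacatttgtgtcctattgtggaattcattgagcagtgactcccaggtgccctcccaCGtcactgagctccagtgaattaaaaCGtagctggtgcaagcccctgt
The genes that were called lower, Ppara and Ppargc1a, therefore stand on different sides of the median for this feature. A promoter was listed for 8 of the 9 genes, 12 in all, and the others ranged from 1 CpG (Lpin1 and the second start of Rxra) to 40 (the first start of Rxra).

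Ppargc1b (ENSMUSG00000033871.14, chr18:61298136-61400431, minus strand) encodes PGC-1β, the close relative of PGC-1α. Ppargc1b had normalized counts of 784, 650, 630, 821 and 512 in ApcMin/+ mice and 729, 858, 613 and 783 in ApcMin/+; p16cis/cis mice. The ranges were almost the same. The means were 680 ± 125 (SD, n = 5) and 746 ± 103 (SD, n = 4), and the log2 fold change was 0.14 (SE 0.15, limma adjusted p = 0.547). The PGC-1 coactivators thus had estimates of opposite sign, and their difference was not tested.

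Lpin1 (ENSMUSG00000020593.15, chr12:16535669-16610966, minus strand) encodes lipin 1, a phosphatidate phosphatase that also acts in the nucleus with PGC-1α and PPARα. Lpin1 was at normalized counts of 307, 189, 145, 230 and 210 in ApcMin/+ mice and 264, 203, 421 and 168 in ApcMin/+; p16cis/cis mice. The mice of the second group were spread widely, with replicate 3 the highest of all 9. The log2 fold change was 0.24 (SE 0.27, limma adjusted p = 0.575), and it was -0.06 among females and -0.02 without that replicate. Lpin2, a relative with the same enzyme activity, was called lower (-0.84, SE 0.14, limma adjusted p = 0.00384), with 832 to 1215 normalized counts against 536 to 654.

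Med1 (ENSMUSG00000018160.15, chr11:98152154-98193293, minus strand) encodes the Mediator subunit that contacts ligand-bound PPARs. For Med1 the normalized counts were 866, 954, 947, 760 and 1342 in ApcMin/+ mice and 1030, 979, 795 and 871 in ApcMin/+; p16cis/cis mice. All 4 of the latter lay inside the ApcMin/+ range. The log2 fold change was -0.06 (SE 0.15, limma adjusted p = 0.806), and its sign changed without ApcMin/+ replicate 5 (0.06), the highest mouse.

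Ncor1 (ENSMUSG00000018501.17, chr11:62316426-62458541, minus strand), the corepressor, was not called. Ncor1 had a normalized count of 4458, 3720, 3455, 3033 and 4188 in ApcMin/+ mice and 3958, 3428, 3392 and 2538 in ApcMin/+; p16cis/cis mice. The lowest mouse carried the p16cis alleles and the highest did not, and the other mice were interleaved. The means were 3771 ± 569 (SD, n = 5) and 3329 ± 587 (SD, n = 4). The log2 fold change was -0.18 (SE 0.15, limma adjusted p = 0.413). Ncor1 is overlapped on the opposite strand by Ttc19 (508 to 653 normalized counts) and Pigl (169 to 262), and whether the counting used strand is not given in the sources used here.

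**Figure D2:**
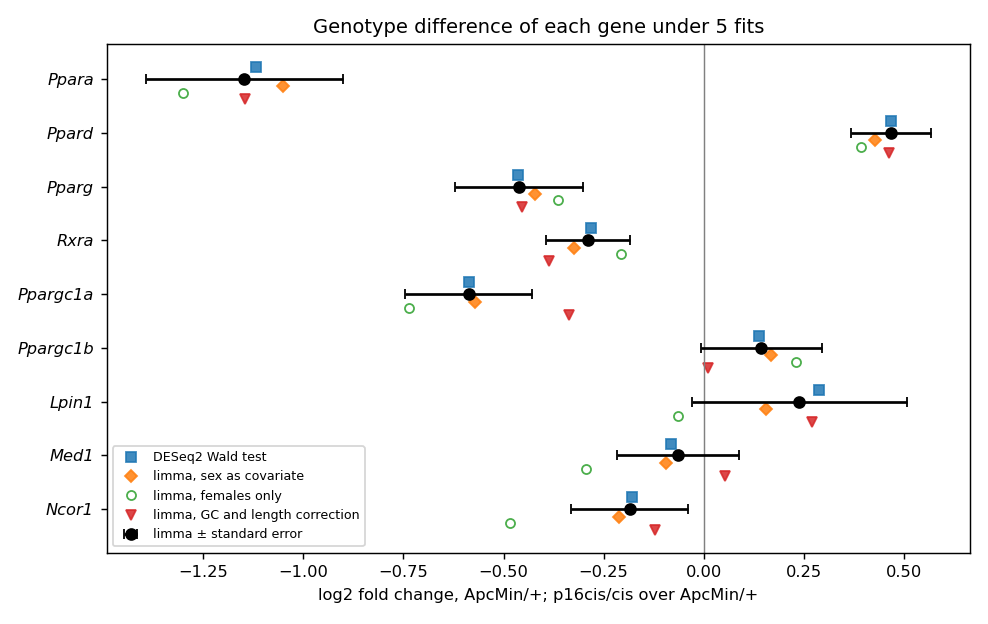
Log2 fold change (x axis, ApcMin/+; p16cis/cis over ApcMin/+) of the 9 genes in the limma fit (black, bar ± standard error) and in 4 alternative fits, namely DESeq2, limma with sex as a covariate, limma in females only and limma after GC and length correction. The points of Ppara (-1.30 to -1.05) stay left of 0 and those of Ppard (0.39 to 0.47) right of it in all 5 fits, and the points of Lpin1 and Med1 lie on both sides.

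Levels of different genes were compared per kb of the union of their annotated exons. In ApcMin/+ mice the order of normalized counts per kb was Pparg (768 ± 164, SD, n = 5), Ppard (764 ± 60.8), Rxra (418 ± 27.7), Ncor1 (294 ± 44.4), Ppargc1b (170 ± 31.3), Ppargc1a (141 ± 24.6), Med1 (111 ± 25.1), Ppara (57.4 ± 13.8) and Lpin1 (22.4 ± 6.16). Pparg and Ppard overlapped in range, as did Ppargc1b with Ppargc1a and Ppargc1a with Med1, and the other neighbours did not. In ApcMin/+; p16cis/cis mice Ppard came first (1056 ± 63.8, SD, n = 4), without overlap with Pparg (555 ± 103), and Ppara (26.2 ± 8.32) and Lpin1 (27.3 ± 11.6) shared the lowest place with overlapping ranges. Between them stood Rxra (343 ± 43.8), Ncor1 (260 ± 45.8), Ppargc1b (187 ± 25.9), Med1 (105 ± 12.1) and Ppargc1a (93.6 ± 16.2). Rxra and Ncor1, Ncor1 and Ppargc1b, and Med1 and Ppargc1a overlapped. The place of Ppard depends on the length used, since with the longest transcript in place of the union of exons it was above Pparg also in ApcMin/+ mice (1541 against 1067 per kb).

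The share of each receptor in the summed RNA level of the 3 was taken as a description. Of the summed level per kb of the 3 receptors, Ppard made up 53.7%, 51.5%, 46.3%, 41.1% and 49.6% in ApcMin/+ mice and 63.4%, 64.8%, 58.9% and 71.4% in ApcMin/+; p16cis/cis mice. Ppara made up 3.59% ± 0.60 (SD, n = 5) and 1.60% ± 0.51 (SD, n = 4), and Pparg 48.0% ± 4.69 and 33.8% ± 4.84. No share overlapped between the genotypes, and none did when the longest transcript was used as the length, where Ppard made up 57.9% and 72.7%. The shares sum to 100% within a mouse, so they are not independent of one another or of the differences above, and no test is given.

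**Figure D3:**
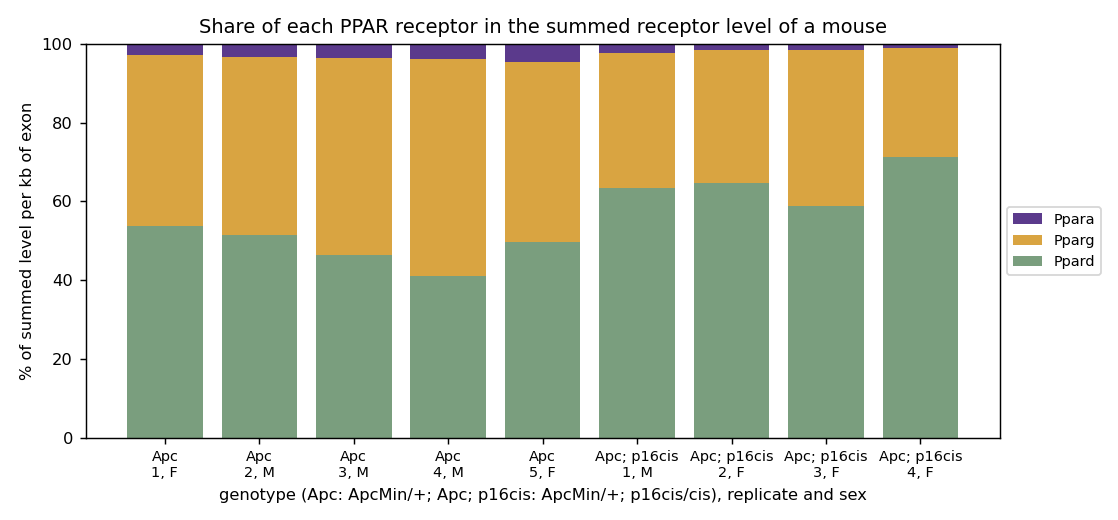
Share of Ppard, Pparg and Ppara (y axis, % of their summed normalized count per kb of exon, stacked to 100%) in each of the 9 mice, labelled by genotype, replicate and sex (F, M). The Ppard part reaches 41.1% to 53.7% in the 5 ApcMin/+ mice and 58.9% to 71.4% in the 4 ApcMin/+; p16cis/cis mice.

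A ratio of coactivator to corepressor within a library does not depend on the size factor. The log2 ratio of Ppargc1a to Ncor1 was -2.004, -1.86, -2.30, -1.65 and -2.32 in ApcMin/+ mice and -2.47, -2.41, -2.40 and -2.44 in ApcMin/+; p16cis/cis mice, without overlap. The latter 4 mice lay within a narrow band (SD 0.03, against 0.29), and 2 of the ApcMin/+ mice came close to it. The ratios of Ppargc1b to Ncor1 (-2.48 ± 0.41 and -2.15 ± 0.37) and of Med1 to Ncor1 (-1.97 ± 0.26 and -1.85 ± 0.23) overlapped. These ratios are given as descriptions and no test of them is printed, so the lack of overlap carries no p-value here. Unequal change within a ratio does not say which gene changed.

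The genes whose pattern over the 9 mice was most like that of Ppara were Nbea, Tlr5, RP23-340N22.1, Itpripl2 and Krt8-ps. Likeness is the root mean square difference of log2 values centred on each gene's mean, and it was 0.16 for Nbea, 0.19 for Tlr5, 0.19 for RP23-340N22.1, 0.21 for Itpripl2 and 0.22 for Krt8-ps, against a median of 0.74 over all genes tested. They share with Ppara the libraries and a low level.

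Of 53 known PPAR target genes, 45 passed the filter. Of these, 21 were called lower in ApcMin/+; p16cis/cis mice (46.7%, beside 8.75% of all genes tested) and 0 higher (8.14%), with 24 not called. DESeq2 called 24 lower and 0 higher, and edgeR 23 and 0, and 1 gene was higher at an unadjusted p under 0.05 in each of the 3 tests. The estimates were below 0 for 40 of the 45, and the median log2 fold change was -0.48, against -0.0041 over all genes. Target genes respond together and are not independent, and several are also targets of other receptors. The list was chosen with earlier results of these data known, so the counts are a description and not independent support. In bulk tissue, fewer cells of a type and less RNA per cell cannot be told apart.

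The genes were grouped by function after the values were seen, and fell means called lower by limma (8.75% of all genes tested). Of 7 peroxisomal genes 5 fell, among them Hsd17b4, which encodes a bifunctional enzyme of peroxisomal β-oxidation (-0.98, SE 0.12, limma adjusted p = 0.00155). In the limma fit the lowest estimate of the target genes was that of Acaa1b, a peroxisomal thiolase, with 108, 234, 539, 627 and 123 normalized counts against 25.3, 30.3, 12.0 and 31.3 (-3.39, SE 0.52, limma adjusted p = 0.00321). Of the genes for mitochondrial entry and β-oxidation 7 of 10 fell, including Cpt1a, which controls entry (-0.50, limma adjusted p = 0.0411), and Acadvl (-0.84). The genotypes overlapped for Cpt1a. Its call was lost with sex in the model (limma adjusted p = 0.0865), among females (0.0897) and after GC and length correction (0.0618). Pdk4, which restrains glucose oxidation, fell as well (-2.55, SE 0.54, limma adjusted p = 0.0105). Of 5 genes of lipid droplets and lipases 4 fell, among them Angptl4, an inhibitor of lipoprotein lipase (-3.32, SE 0.70). Among females alone limma called 3 of the 7 peroxisomal genes and 2 of the 10 mitochondrial genes lower (2.63% of all genes). It then called 0 of the 5 lipid droplet and lipase genes, 3 of which were lower at an unadjusted p under 0.05. Of 5 genes of fatty acid desaturation and synthesis, limma, DESeq2 and edgeR called 0, and 0 had an unadjusted p under 0.05 in limma. Of 10 tested genes of uptake and activation, limma called 1 lower (Acsl3, -0.70) with 5 at an unadjusted p under 0.05, DESeq2 called 4 and edgeR 3. Of the remaining 6 tested, Creb3l3, a liver and gut transcription factor (-2.63, SE 0.44), and Vnn1 (-2.51) fell. Cyp4a10, too low for the filter, had 0, 36.1, 187, 188 and 0 in ApcMin/+ mice and 0 in all 4 ApcMin/+; p16cis/cis mice.

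**Figure D4:**
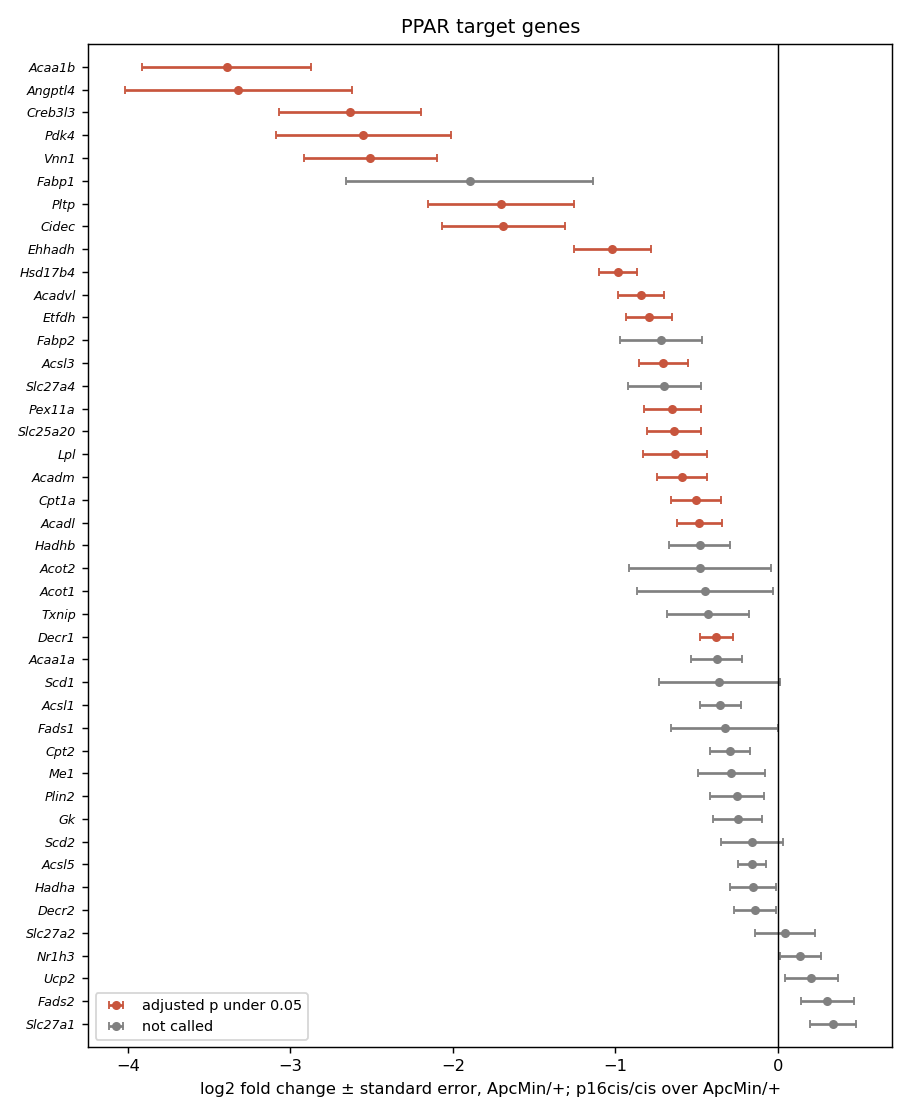
Log2 fold change ± standard error (x axis, ApcMin/+; p16cis/cis over ApcMin/+, limma) of 43 of the 45 PPAR target genes tested, in order, with 19 called at an adjusted p under 0.05 in red and 24 not called in grey. The estimates run from -3.39 (Acaa1b) to 0.34 (Slc27a1), and 38 lie left of 0.

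The target genes also differed among the ApcMin/+ mice. Each gene was centred on its own mean over the 9 mice, and the median of the 45 deviations was 0.01, 0.10, 0.43, 0.71 and 0.04 in the ApcMin/+ mice and -0.27, -0.38, -0.30 and -0.34 in the ApcMin/+; p16cis/cis mice. The ApcMin/+ females (replicates 1 and 5) were thus nearest to the other genotype, although replicate 5 had one of the highest values of Ppara (276). In 26 of the 45 target genes (57.8%) every ApcMin/+ male lay above both ApcMin/+ females, an order found in 13.5% of all genes tested. None of the 9 receptor and coregulator genes showed it. The reverse order, every ApcMin/+ male below both females, held for 2 of the 9, Ppard and Ncor1 (22.2%, beside 12.2% of all genes tested). It held for 2 of the 45 target genes (4.44%). Angptl4 was at 229, 598 and 627 in the ApcMin/+ males and at 89.3 and 39.7 in the females, and Pdk4 at 457, 1215 and 1489 against 183 and 270. The sex difference within ApcMin/+ was not called by limma for any target or any of the 9 genes, where 0.0208% of all genes were called lower in males and 0.0416% higher (22 of the 45 targets, 0 of the 9 genes and 938 of all 14410 genes had an unadjusted p under 0.05), and neither was a genotype by sex interaction (0% of all genes called, with 9, 1 and 979 at an unadjusted p under 0.05).

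**Figure D5:**
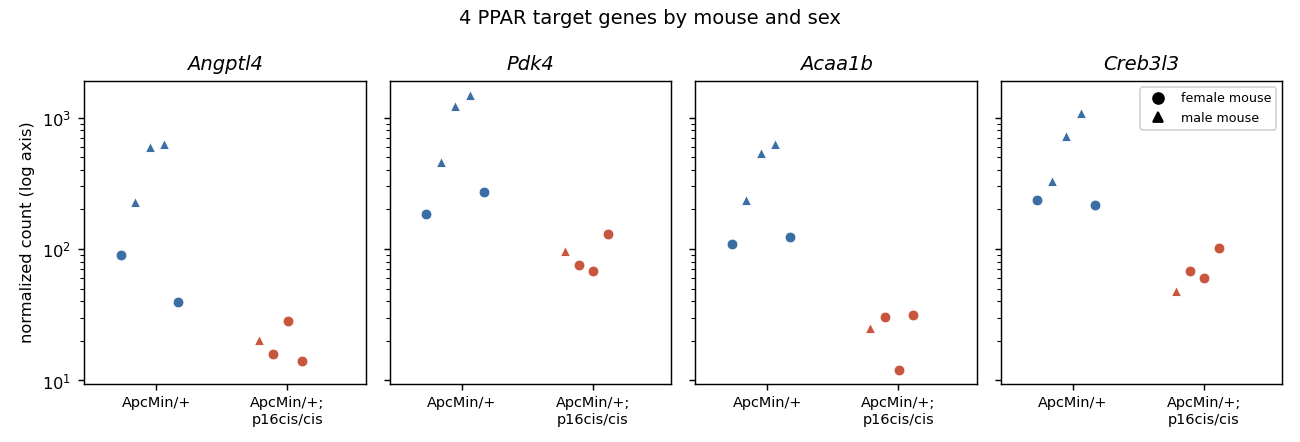
Normalized count (y axis, log scale) of Angptl4, Pdk4, Acaa1b and Creb3l3, the 4 target genes with the lowest limma estimates among those called, in each mouse by genotype, with circles for females and triangles for males. The ApcMin/+ males are the highest points in each panel, the ApcMin/+ females lie between them and the ApcMin/+; p16cis/cis mice (12.0 to 130 over the 4 genes).

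Since males were 3 of 5 ApcMin/+ and 1 of 4 ApcMin/+; p16cis/cis mice, the counts were also taken with sex held fixed. With sex in the model 14 of the 45 target genes were called lower (5.28% of all genes, and 4.69% higher) together with Ppara (-1.05, limma adjusted p = 0.0312), and Ppard was called higher (0.43, limma adjusted p = 0.0319). Among females alone 7 target genes were called lower by limma (2.63% of all genes lower and 3.6% higher) and none of the 9 genes, 4 of which had an unadjusted p under 0.05. In 26 of all 45 target genes tested (57.8%), called or not, every ApcMin/+; p16cis/cis female lay below both ApcMin/+ females, an order found in 21.98% of all genes tested. Fewer target genes were called without ApcMin/+ replicate 3 (13), or without ApcMin/+; p16cis/cis replicate 2 (12) or 4 (13).

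PPARs bind the direct repeat DR1, which is AGGTCA, a spacer N of 1 base and AGGTCA again. Within 250 bases before to 50 after the start, on either strand, this motif was sought with at most 2 mismatches. It was found in 6 of 39 target genes with a promoter in the RefSeq table (15.4%) and in 2 of the 14 called lower (14.3%). Counted by promoter and not by gene, it was found in 3.86% of the 32851 promoters. A gene counted if any of its promoters matched, so these shares are not like for like. The stretches are shown for the gene with a single mismatch, Fabp1, a fatty acid binding protein (chr6:71199804-71199832, minus strand), and for the called genes Creb3l3 (chr10:81092780-81092808, minus strand) and Slc25a20, the carnitine carrier (chr9:108662134-108662162, plus strand), all in GRCm38.p6, with the motif in capitals.
Fabp1: tcagatatAGGCCATAGGTCAgtgattgt
Creb3l3: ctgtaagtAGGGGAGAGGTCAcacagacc
Slc25a20: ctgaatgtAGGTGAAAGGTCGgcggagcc
Fabp1 itself was not called by limma (-1.90, SE 0.76, adjusted p = 0.105) and was called lower by DESeq2 (-2.89, adjusted p = 0.0028) and edgeR (-2.86, adjusted p = 0.0478), with the highest counts in ApcMin/+ males (81.0 and 172 in replicates 3 and 4). A match is a description of letters, and binding was not measured.

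The wider coregulator families are given beside the shares over all genes, 8.75% lower and 8.14% higher. Of 16 other nuclear receptor coactivators 3 were called lower (18.8%), with a median log2 fold change of -0.04. They were Ncoa7 (-1.47, SE 0.23, limma adjusted p = 0.00353), Ncoa4, better known for the turnover of ferritin (-0.90, SE 0.21), and Kat2b, a histone acetyltransferase (-0.46, SE 0.12). Of 9 other corepressors Gps2, a subunit of the NCoR complex, was called higher (0.84, SE 0.15, limma adjusted p = 0.00543), with 840 to 1299 normalized counts in ApcMin/+ mice and 1571 to 2055 in ApcMin/+; p16cis/cis mice. Of 31 Mediator subunits tested beside Med1, 3 were lower (9.68%; Ccnc, -0.47; Med23, -0.42; Med13l, -0.41) and 4 higher (12.9%; Med29, 0.63; Med31, 0.56; Med21, 0.38; Med24, 0.37). Of 11 tested factors that PGC-1 coactivators work with, Tfam, which maintains mitochondrial DNA, was called lower (-0.52, SE 0.11, limma adjusted p = 0.00957), and Esrra was not (-0.22, limma adjusted p = 0.244). Of the clock genes, which control Ppara and Ppargc1a in other tissues, 1 of 17 was called lower (5.88%, beside 8.75% of all genes), Nr1d2 (-1.005, SE 0.32, limma adjusted p = 0.0485), whose genotypes overlapped because ApcMin/+; p16cis/cis replicate 3 was at 1147. DESeq2 also called 1 and edgeR 0, with 4 of the 17 lower at an unadjusted p under 0.05 in limma and 2 in edgeR. The limma count was 5 without that replicate, 0 without ApcMin/+ replicate 1, 2 or 5 or ApcMin/+; p16cis/cis replicate 1 or 4, and 0 after GC and length correction. The hour of collection is not given in the sources used here.

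Markers of other cells that moved with the genotype are given beside these results, and their part in them was not tested. Of all genes tested, limma called 8.75% lower and 8.14% higher. Of 8 colonocyte markers 2 were called lower (25%), Slc9a3 (-1.54) and Slc26a3 (-1.23). All 8 estimates were below 0, with a median log2 fold change of -0.57, beside -0.48 over the PPAR target genes. The summed level of all 8 was 128083 to 268475 in ApcMin/+ mice and 92124 to 114565 in ApcMin/+; p16cis/cis mice. Mki67 was called higher (0.92) among 6 crypt and cycling markers tested (16.7%), and all 6 estimates were above 0 (median 0.41). The sum over all 7 such markers was 5280 to 8874 and 8856 to 11722. Spink4 was called higher (1.41) among 7 goblet cell markers (14.3%), whose sums overlapped (283594 to 437281 and 302681 to 583408). Of 7 markers of adipocytes, which are rich in Pparg, Adipoq, Cfd, Plin1, Lep and Retn did not pass the filter. Cidec, also on the target list, was called lower, 1 of the 2 tested (50%), and the sum over all 7 was 136 to 451 and 55.6 to 90.2. Both tested estimates were below 0 (-2.22 and -1.69), and both had an unadjusted p under 0.05 in limma. Of 7 smooth muscle and stroma markers tested, limma and edgeR called 0 and DESeq2 1 (sums 179 to 637 and 138 to 330). In limma 1 of them had an unadjusted p under 0.05, and all 7 estimates were below 0 (median -0.76). Of 8 immune markers Jchain (-2.65) and Lyz2 (-1.56) were called lower by limma (25%, sums 163 to 1734 and 308 to 512). The median of the 8 was -1.13, with 6 below 0 and 2 above. DESeq2 called 4 immune markers lower and 1 higher, edgeR 3 lower, and limma in females alone 3 lower.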

How the data were processed

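The authors extracted RNA from the colon of 9 mice, sequenced libraries made by rRNA depletion and oligo dT selection on a BGI platform, aligned reads with BOWTIE2 and computed gene levels with RSEM. The deposited table holds a signal per gene and mouse, a read count scaled by a DESeq2 size factor. Tool versions, genome build, annotation and strandedness are not given in the sources used here. Of the 54146 identifiers, 54079 were found in GENCODE M21 (GRCm38) and 52480 had the version number used there. Positions and exon lengths came from it.

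Dividing each value by the value of 1 read in its library gave whole reads for 100% of positive values (tolerance 0.01 reads). Limma 3.58.1 (R 4.3.3, trended variances) on log2(normalized count + 1) was the test, with genotype as its only term, since the values are normalized. Fold changes on this scale understate the change of low genes. DESeq2 1.42.0 and edgeR 4.0.16 on the recovered reads, TMM and upper-quartile scaling, other filters, a pseudocount of 0.1, sex or the mitochondrial share as a covariate, females only, leaving out each mouse, the replicate block, and a loess correction for GC content and length (span 0.5) were alternatives. Size factors without mitochondrial genes and a genotype by sex interaction were added after seeing the data. The fits were tested on simulated data.

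The genes and lists were chosen with earlier results of these data known. Named from each list were the 4 genes with the largest fall and the 4 with the largest rise among those called, and for Ppara the 5 genes most like it. Genes named beyond this (the other target genes, Rxrb, Rxrg, Esrra and the genes overlapping Ncor1) were chosen after their values were seen. Some genes that enter the counts are not reported here by name or plotted. Same-numbered mice are different animals, and their deviations from the group means correlated by -0.18, 0.066, 0.046 and 0.14, so numbers were not used as pairs. Limma p-values set the genotype difference against the spread between these mice, with each gene's variance drawn toward a trend over all genes. Exact permutation over the 126 splits was computed and is not printed beside the model.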

Additional observations from a re-analysis of the deposited data

Results flagged for a closer look

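A mouse stood apart from the rest of its group for 3 genes among 60 groups checked by Dixon's criterion, which chance alone exceeds in about 1 of 20 groups, or 3 of 60. Ppard was at 8647 normalized counts in ApcMin/+; p16cis/cis replicate 4, against 7634 to 7776 in the other 3 mice. Pparg was at 3110 in ApcMin/+ replicate 4, against 1922 to 2192 in the other 4. Lpin2 was at 654 in ApcMin/+; p16cis/cis replicate 2, against 536 to 553 in the other 3.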

How the results depend on the processing

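Over 23 alternatives each, Ppara kept its direction in all and its call in 20, Ppard in 21 and Ppargc1a in 14. Over all 23, with or without the call, they ran from -1.32 to -0.67, 0.30 to 0.50 and -0.74 to -0.34, and Ncor1 stayed below 0 and uncalled in all. The cause of the losses was not tested, except that females only means fewer mice, 2 against 3. With the mitochondrial share as a covariate 0 genes of all were called by limma, so also 0 of the 9 genes, 0 target genes, 0 coregulator and partner genes and 0 clock genes. Then Ppara was at -0.67, Ppard at 0.30, Ppargc1a at -0.65 and Ppargc1b, turned in sign, at -0.11. In females only, 0 of the 9 genes, 7 target genes, 3 coregulator and partner genes (other coactivators, corepressors, Mediator subunits, PGC-1 partners, retinoid X receptors and lipins) lower (8 in all mice) and 1 higher (5 in all mice), and 0 clock genes were called, with Ppara at -1.30, Ppard at 0.39, Ppargc1a at -0.74 and Lpin1, turned, at -0.06. With sex in the model 1 of the 9 genes was called lower, Ppargc1a was at -0.57, and coregulator and partner calls were 4 and 3. DESeq2 called Pparg (-0.46). With no filter, coregulator and partner calls were 5 and 2. A pseudocount of 0.1 and, separately, edgeR called 0 clock genes lower. After GC and length correction Rxra was called (-0.39), Ppargc1a was not (-0.34), Med1 turned to 0.05, 2 coregulator and partner genes were called higher and 0 clock genes lower. With the replicate block, which joins mice that share only a number, Med1 turned to 0.06 and coregulator and partner calls were 4 and 3, with 0 clock genes. With the replicate block and GC correction together Ppara was at -1.05 (limma adjusted p = 0.0552), Ppargc1a at -0.41, Ppargc1b at -0.07 and Med1 at 0.14, and 0 of the 9 genes, 2 coregulator and partner genes and 0 clock genes were called lower and 3 and 1 of the last families higher. The block moved no other count of calls by over 1.5 times.

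Leaving out each mouse gave -1.32 to -0.93 for Ppara, 0.42 to 0.50 for Ppard, -0.57 to -0.34 for Pparg, -0.36 to -0.22 for Rxra, -0.68 to -0.46 for Ppargc1a, 0.05 to 0.23 for Ppargc1b, -0.02 to 0.43 for Lpin1, -0.15 to 0.06 for Med1 and -0.27 to -0.06 for Ncor1. Among the 9 genes 1 to 4 were called lower and 1 higher, the 4 without ApcMin/+; p16cis/cis replicate 3. Target genes called lower were 12 to 23 and higher 0 to 1, coregulator and partner genes 4 to 8 and 2 to 8, and clock genes 0 to 5 and 0 to 1. The differences in receptor shares and coactivator ratios kept their sign in all 11 alternatives each and moved by less than the SD of the more variable genotype. That of Ppargc1a to Ncor1 ran from -0.48 to -0.25, a wider range than the SD of 0.03 among ApcMin/+; p16cis/cis mice. Depth limits Ppara, with 39 reads in its lowest library, more than the other receptors.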
